A study of Mus musculus with 20 samples.

Results

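Marker genes of the olfactory bulb were followed in slices of the frontal pole, the tissue that was taken as prefrontal cortex, to see whether dissection differed between stressed and control mice. The 8 genes were Th, Doc2g, Tbx21, Eomes, Cdhr1, Sp8, Meis2 and Synpr, and every array probe that carried one of these names was taken, which gave 11 of 39429 probes. RNA came from male Swiss-Webster mice that met unfamiliar males in a social stress procedure, and from undisturbed siblings. Each pool held RNA of 3 mice, and a stress pool was hybridised with the pool of its control siblings on one dual-colour Agilent array. The 4 time points were acute stress (24 h after a single encounter), stress repeated for 8 days or for 13 days, and recovery (5 days of rest after 13 days of stress). Each time point had control mice of its own and 3 pairs of pools, 12 pairs in all on 20 arrays. All mice, stressed or not, lived singly, and stressed and control mice were kept in separate rooms, so that room and stress cannot be told apart. Pool 1 of each time point had 1 array, with stress RNA in the red dye Cy5, and pools 2 and 3 had that array and a dye swap. The slices were 1 mm thick, and in such slices the frontal pole and the olfactory bulb lie side by side without touching, as the study's methods describe. How bulb tissue was kept apart is not given in the sources used here.

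The olfactory bulb receives the axons of the olfactory nerve in round glomeruli, where they meet the dendrites of mitral and tufted cells, the neurons that send the bulb's output to the olfactory cortex. Inhibitory interneurons, most of them granule cells and periglomerular cells, shape this output, and new ones migrate into the bulb throughout life. Cdhr1 (a cadherin-related protein), Doc2g (a protein with calcium-binding C2 domains) and the T-box transcription factors Tbx21 and Eomes mark mitral and tufted cells. Th (tyrosine hydroxylase, the rate-limiting enzyme of dopamine synthesis) and the zinc finger factor Sp8 mark periglomerular interneurons. Meis2, a homeobox factor, and Synpr, which encodes the synaptic vesicle protein synaptoporin, are found in bulb interneurons and also in other forebrain neurons.

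The values are log2 ratios of stress over control, made from background-corrected spot intensities, with the 2 arrays of a dye-swapped pool averaged. Levels are log2 normalised signals of one channel, so a level of one probe is not comparable with that of another. An array channel detected 58.0% to 74.3% of probes above background by the scanner software's mark. The probes of Th, Doc2g, Cdhr1, Sp8, Meis2 and Synpr were well above background in both channels on all 20 arrays. Tbx21 was so in the stress channel of 15 arrays and the control channel of 12. The 2 probes of Eomes were dim. Probe 1 was well above background in the stress channel of 4 arrays and the control channel of 5, and probe 2 in 0 and 1. Of 12 cortical projection neuron genes, which mark the labelled tissue, 11 were well above background on all arrays. Time point and array position on the slide cannot be told apart, since each time point held the same position on all 5 slides. The slides were scanned on 2 days, pool 3 on the second.

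No bulb marker passed the test for a difference between stress and control at any time point. Mean log2 ratios of the 11 probes lay between -0.15 and 0.10 after acute stress, -0.17 and 0.16 after 8 days, -0.15 and 0.01 after 13 days, and -0.10 and 0.11 in recovery. In limma, 0 of the 11 probes were called (adjusted p under 0.05 over all probes and a log2 ratio over 0.5 in size) after acute stress, after 8 days, after 13 days, in recovery or in the mean over the 4 time points. Over all probes, 0.00507% were called after acute stress, 0.00254% after 8 days, 0.0279% after 13 days, 0% in recovery and 0.0127% in the mean. At an unadjusted p under 0.05 there were 1, 2, 2, 0 and 1 of the 11 probes in these comparisons, against 6.3%, 4.17%, 8.58%, 3.97% and 11.9% of all probes. The lowest limma adjusted p of the 11 was 0.725 (acute), 0.99 (8 days), 0.512 (13 days), 0.991 (recovery) and 0.31 (mean over the 4). The 95% intervals of single time points reached -0.59 and 0.62 at the widest (both for Cdhr1), so smaller differences lie within the interval of at least 1 probe. Of the 66 differences between time points, 0 passed an adjusted p of 0.05 and 2 an unadjusted one, with a lowest adjusted p of 0.793 (Synpr probe 1, recovery minus acute, 0.26, SE 0.082). Over all probes, 0.0178% passed between 13 days and acute stress, 0.00254% in each of the other contrasts with acute stress and 0% in the remaining 3. Behind these means, acute pools 2 and 3 had ratios of opposite sign for several markers.

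**Figure D1:**
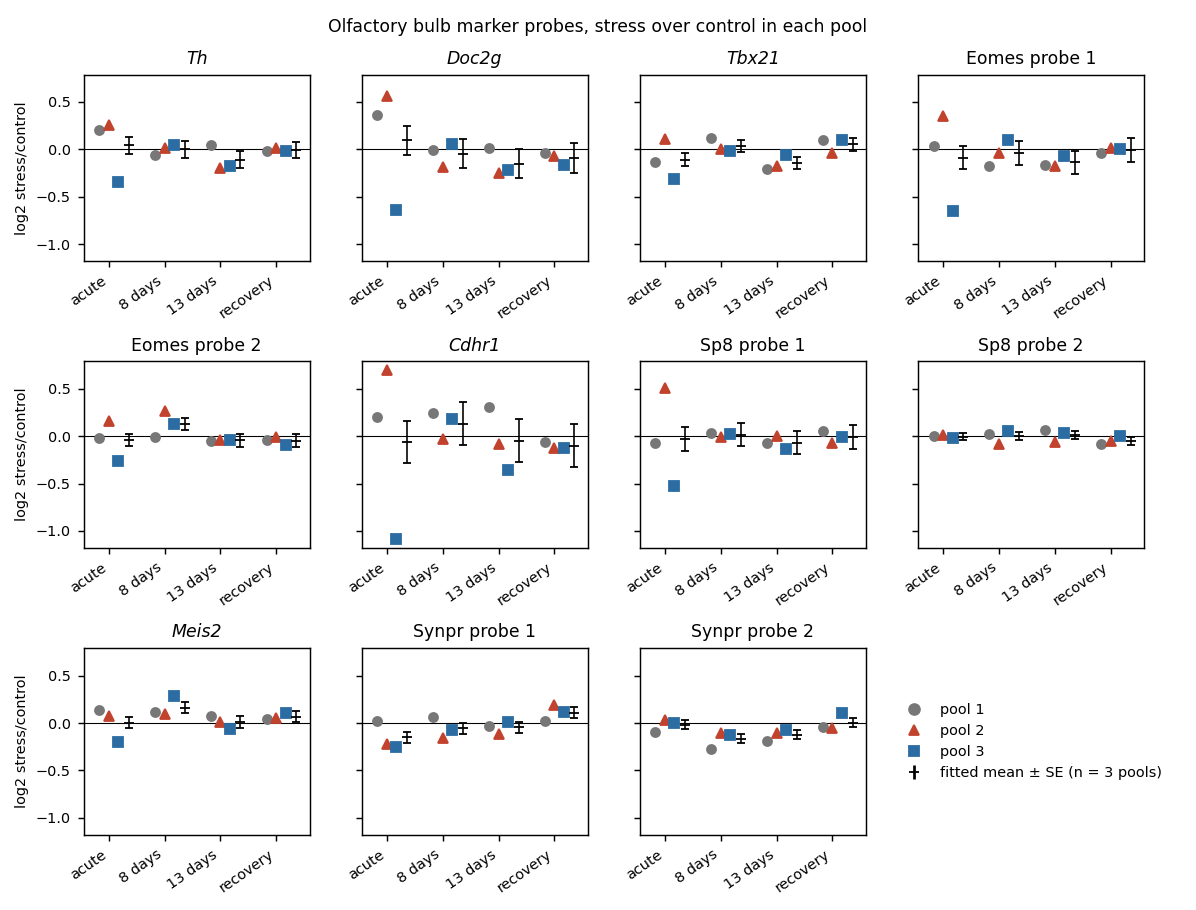
Log2 ratio of stress over control (y axis) of the 11 probes, 1 panel each, in pools 1 to 3 of the 4 time points (x axis); grey circles, red triangles and blue squares are pools 1, 2 and 3, and black bars are limma's mean ± SE. For Cdhr1, Doc2g, Sp8 probe 1, Eomes probe 1 and Th, acute pool 2 is the highest and acute pool 3 the lowest of 12 pools; the 2 Eomes probes are at or near background in most arrays.

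The mitral and tufted cell marker Cdhr1 (probe at mm9 chr14:37891387-37891446) had the widest range of the 11 probes. Its log2 ratio was 0.20, 0.70 and -1.09 in acute pools 1 to 3, 0.24, -0.03 and 0.19 after 8 days, 0.31, -0.09 and -0.36 after 13 days, and -0.06, -0.12 and -0.12 in recovery. Stress RNA of acute pool 2 held 1.62 times the Cdhr1 signal of its control, and in acute pool 3 the control held 2.13 times the signal of stress RNA. The other 10 pools lay between -0.36 and 0.31. Other background and scaling settings moved the size, to between 0.70 and 1.41 in acute pool 2 and between -1.81 and -0.66 in acute pool 3. The mean of the 3 acute pools was -0.06 (SE 0.22, 95% interval -0.55 to 0.42, limma adjusted p = 0.986), and the residual SD of Cdhr1 over the 12 pools, 0.497, was higher than that of 99.7% of all probes.

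Doc2g (probe at mm9 chr19:4006386-4006557, a span longer than the 60-base probe) also had its highest ratio in acute pool 2 and its lowest in acute pool 3. The ratio was 0.36, 0.56 and -0.63 in acute pools 1 to 3, -0.01, -0.19 and 0.06 after 8 days, 0.01, -0.25 and -0.21 after 13 days, and -0.04, -0.07 and -0.17 in recovery. Stress was above control in 2 of the 3 acute pools, and control above stress in every recovery pool by at most 0.17. Of all probes, 11.4% were lower in stress in every recovery pool. The acute mean was 0.10 (SE 0.15, 95% interval -0.24 to 0.43, limma adjusted p = 0.959). The residual SD of 0.336 was higher than in 99% of all probes.

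The T-box factors were near the limit of detection. Eomes probe 1 (mm9 chr9:118394425-118394484) was well above background in stress RNA but not in control RNA on both arrays of acute pool 2, and in control RNA but not in stress RNA on both arrays of acute pool 3. Its ratio was 0.04, 0.35 and -0.65 in acute pools 1 to 3. Since 1 channel was not well above background, the size depended on the processing. Under other background and scaling settings it lay between 0.35 and 2.73 in acute pool 2 and between -2.65 and -0.27 in acute pool 3. The acute mean was -0.09 (SE 0.12, limma adjusted p = 0.952). After 8 days and in recovery Eomes was not well above background on any array, so those ratios carry no fold. Eomes probe 2 (mm9 chr9:118395189-118395248) had ratios of -0.02, 0.16 and -0.27 in acute pools 1 to 3, all near background. Tbx21 (mm9 chr11:96959417-96959476) had ratios of -0.13, 0.11 and -0.31 in acute pools 1 to 3 and lay between -0.20 and 0.12 in the other time points. Its level in acute pool 2 was 6.73 for stress and 6.62 for control, and in acute pool 3 it was 6.34 for stress and 6.66 for control. Tbx21 was lower in stress in 3 of 3 pools after 13 days, at -0.20, -0.17 and -0.06 (mean -0.15, SE 0.065), with a limma adjusted p of 0.571. Of all probes, 15.5% were lower in stress in all 3 of these pools. In pool 3 its sign changed with the dye, at 0.09 on the original and -0.20 on the swap array. Tbx21 was well above background in red on 20 arrays and in green on 7.

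The promoters of Cdhr1 and Doc2g, the mitral and tufted cell genes that varied most, are shown for the core GGTGTG bound by T-box factors, the family of Tbx21 and Eomes. They run from 250 bases before to 50 after the transcription start (RefSeq, build GRCm38.p6), and capitals mark GGTGTG or its reverse complement CACACC.
Cdhr1 (chr14:37098298-37098597, minus strand): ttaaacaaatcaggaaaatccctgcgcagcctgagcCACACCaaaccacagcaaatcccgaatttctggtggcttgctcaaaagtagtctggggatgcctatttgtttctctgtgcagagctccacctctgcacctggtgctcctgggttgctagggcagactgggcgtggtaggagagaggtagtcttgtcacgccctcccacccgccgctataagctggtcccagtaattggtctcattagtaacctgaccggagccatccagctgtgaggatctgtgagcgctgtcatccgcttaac
Doc2g (chr19:4003135-4003434, plus strand): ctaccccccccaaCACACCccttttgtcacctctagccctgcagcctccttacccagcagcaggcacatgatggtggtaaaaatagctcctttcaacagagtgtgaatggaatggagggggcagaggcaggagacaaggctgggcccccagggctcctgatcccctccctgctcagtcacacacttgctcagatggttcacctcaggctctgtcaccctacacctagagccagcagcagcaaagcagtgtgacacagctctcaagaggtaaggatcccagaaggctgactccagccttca
Each holds the core once, as CACACC in the strand printed. Sp8 is the only other of the 8 genes with it, in 2 of its 3 promoters, and it occurs in 19% of all 32851 promoters and in 21.4% of genes. A match of these 6 letters is a description of the sequence only.

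Of the interneuron markers, Th (mm9 chr7:150078703-150078762) had ratios of 0.21, 0.26 and -0.34 in acute pools 1 to 3, and between -0.20 and 0.05 at the later time points. Both RNAs of acute pools 2 and 3 were high in Th. Its level in acute pools 1 to 3 was 9.15, 9.66 and 9.22 in stress and 8.94, 9.40 and 9.57 in control, whereas from 8 days onward it lay between 8.85 and 9.08 in stress and between 8.80 and 9.10 in control. The acute mean of the ratio was 0.04 (SE 0.088, 95% interval -0.15 to 0.23, limma adjusted p = 0.976).

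The 2 probes of Sp8 gave different results. Probe 1 (mm9, chr12:120090880-120090939) had ratios of -0.07, 0.51 and -0.53 in acute pools 1 to 3, and the values of pools 2 and 3 lay outside the range of -0.14 to 0.05 of the other 10 pools. Probe 2 (mm9, chr12:120088145-120088204) had 0.00, 0.01 and -0.02 in the same pools and lay between -0.09 and 0.07 everywhere. Probe 1 had a residual SD higher than in 98.2% of all probes, and probe 2 higher than in 8.13%. Both were above background on all 20 arrays, and which of the 2 probes reports Sp8 was not tested. Their sequences differ in composition, with 36.7% G or C in probe 1 and 55% in probe 2. The first 30 bases of each 60-base probe follow, to show that the 2 Sp8 probes read different sequence, beside those of Cdhr1 and Doc2g, the probes with the widest range of ratios.
Sp8 probe 1: aaacattgtcttgttatgtctaagtgcatt
Sp8 probe 2: tgcaacaaacgcttcatgcgcagcgaccac
Cdhr1: tgtaataatcttgaggagggatatcctgca
Doc2g: tccaaatataagaccagtgttcggaggaag

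In acute pools 2 and 3, Meis2 and Synpr had ratios smaller in size than those of Cdhr1, Doc2g, Th and Sp8 probe 1. Which cells of the slice gave the signal of any marker was not tested. Meis2 (mm9 chr2:115689641-115689700) had ratios of 0.14, 0.07 and -0.20 in acute pools 1 to 3. After 8 days it was higher in stress in 3 of 3 pools, at 0.11, 0.09 and 0.29 (mean 0.16, SE 0.060), with a limma adjusted p of 0.99. Of all probes, 11.7% were higher in stress in all 3 of these pools. Synpr probe 1 (mm9 chr14:14447766-14447825) had ratios of 0.02, -0.22 and -0.25 in acute pools 1 to 3, so that pools 2 and 3 had the same sign, with a mean of -0.15 (SE 0.058, limma adjusted p = 0.725). Synpr probe 2 (mm9 chr14:14447914-14447973) had -0.09, 0.03 and -0.00 there, but was lower in stress in 3 of 3 pools after 8 days (mean -0.17, SE 0.049) and after 13 days (mean -0.12, SE 0.049), with limma adjusted p of 0.99 and 0.512. Of all probes, 10.7% after 8 days and 15.5% after 13 days were lower in stress in 3 of 3 pools. Probe 1 had 0.06, -0.16 and -0.07 after 8 days.

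The opposite signs of acute pools 2 and 3 were found in both dye orientations. Of the 11 probes, 9 in acute pool 2 had the same sign on the original and the dye-swap array, and 9 in acute pool 3. In the other 6 swapped pools it was 4 to 7. Synpr probe 1 is counted in both acute pools, but its sign was not opposite. It had -0.13 and -0.32 in acute pool 2, and -0.25 on each array of acute pool 3. The share of all probes with the same sign on both arrays is not given here. Cdhr1 had 0.84 on the original and 0.56 on the swap array of acute pool 2, and -1.20 and -0.97 on those of acute pool 3. Doc2g had 0.54 and 0.58 in acute pool 2, and -0.79 and -0.48 in acute pool 3. Sp8 probe 1 had 0.42 and 0.61 in acute pool 2, and -0.52 and -0.53 in acute pool 3. The gap between the 2 arrays of a pool was at most 0.27 in acute pool 2 and 0.30 in acute pool 3 over the 11 probes, less than the distance between the pools for these 3 genes. The arrays of a pool measure the same RNA, so this is technical agreement, and a single pair of pools allows no test between pools 2 and 3.

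**Figure D2:**
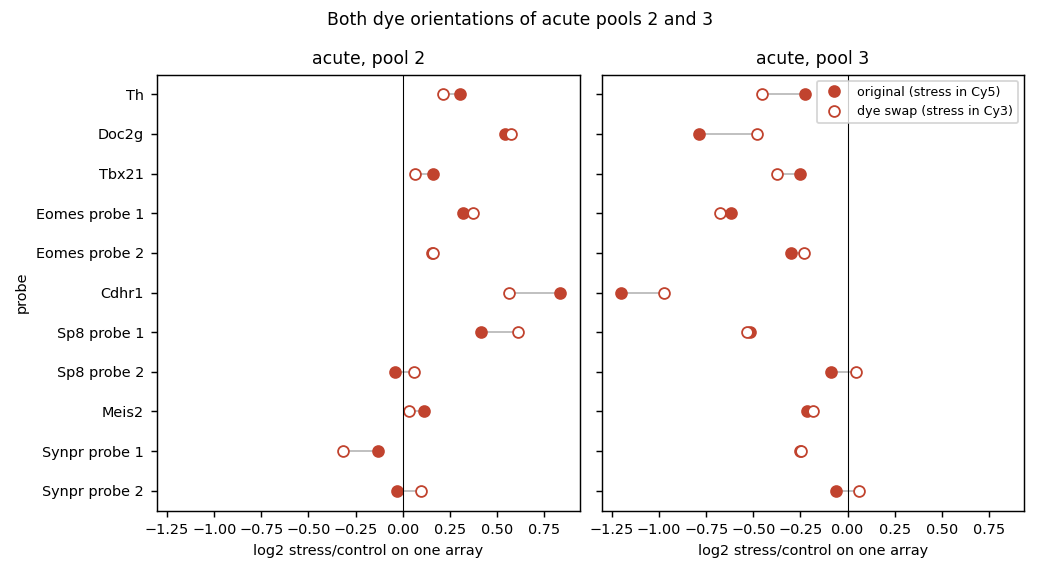
Log2 ratio of stress over control (x axis) on each array of acute pool 2 (left) and acute pool 3 (right) for the 11 probes (rows); filled circles are original arrays with stress in Cy5 and open circles are dye swaps. Cdhr1, Doc2g, Eomes probe 1, Sp8 probe 1 and Th lie right of 0 on both arrays of pool 2 and left of 0 on both arrays of pool 3.

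Levels in the 2 channels are set out here across slides and scan days, as a description. Over the 12 pools, the highest stress level of Th, Doc2g, Tbx21, Cdhr1, Sp8 probe 1 and both Eomes probes was that of acute pool 2. The highest control level of Th, Doc2g, Cdhr1, Meis2, both Sp8 probes and both Eomes probes was that of acute pool 3. Acute pool 3 also had the highest stress level of Sp8 probe 2, whose ratio there was -0.02. Cdhr1 had a stress level of 7.43 in acute pool 2 within a range of 6.83 to 7.43, and a control level of 7.92 in acute pool 3 within a range of 6.73 to 7.92. For Doc2g the stress level of acute pool 2 was 8.19 (range 7.30 to 8.19) and the control level of acute pool 3 was 8.43 (range 7.40 to 8.43). Th was also high in the control RNA of acute pool 2, at 9.40, above all later pools. Pools contain 3 mice each, and values of single mice were not measured. More cells of a type and more RNA per cell cannot be told apart in such pools.

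**Figure D3:**
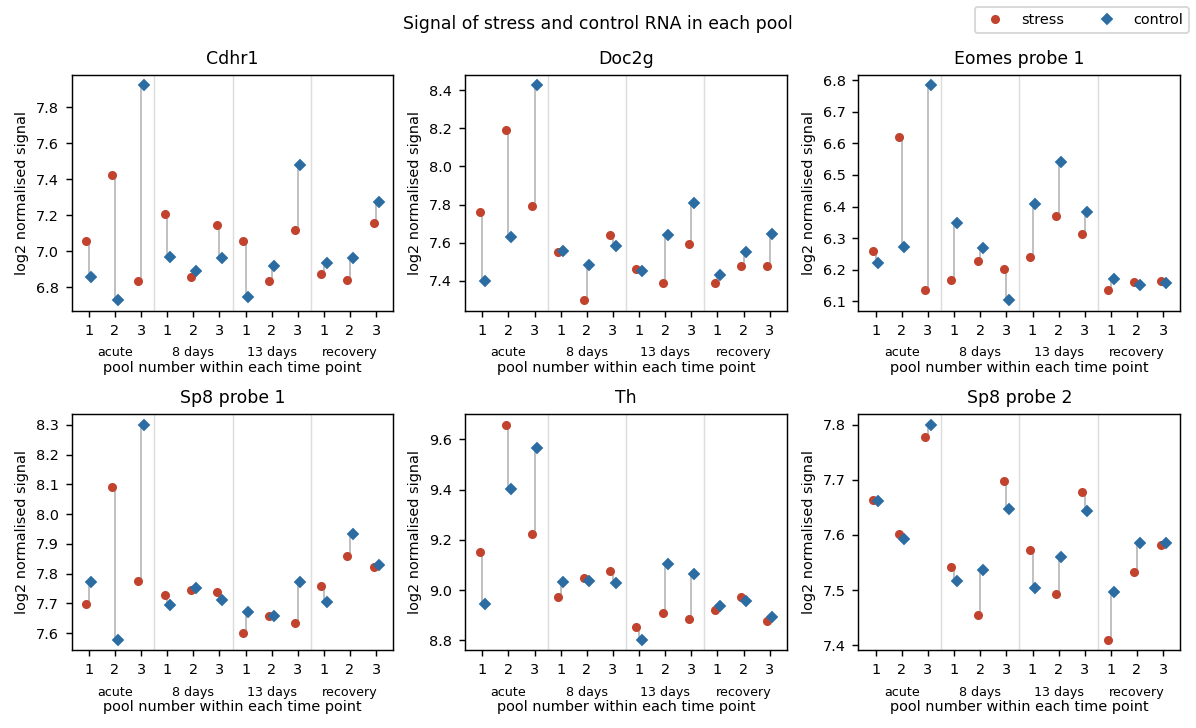
Log2 normalised signal (y axis) of stress (red circles) and control RNA (blue diamonds) in each of the 12 pairs of pools (x axis, pools 1 to 3 within each time point) for 6 probes; the scales differ between panels. The stress level of acute pool 2 and the control level of acute pool 3 are the highest of their kind for Cdhr1, Doc2g, Eomes probe 1, Sp8 probe 1 and Th, while stress and control of Sp8 probe 2 lie within 0.09 of each other in every pool.

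Few probes of the array did the same. A log2 ratio over 0.25 in acute pool 2 together with one under -0.25 in acute pool 3, sizes set after the values were seen, was found for 5 of the 11 probes (Th, Doc2g, Eomes probe 1, Cdhr1 and Sp8 probe 1) and for 17 of 39429 probes, 0.0431% (0.0586% of the probes well above background everywhere). These are the values that set the markers apart here, so the count is a description. The opposite pattern occurred in 3 probes, 0.00761%. Over all probes, the ratios of acute pools 2 and 3 had a Pearson r of 0.27, a positive relation. Of the 17, 13 were well above background on all arrays. Beside Cdhr1, Doc2g, Sp8 and Th these were Ly6g6e, Lgr5, Trh, Meis1, Lct, A230065H16Rik and 2 probes of Pbx3, at 0.27 to 0.50 in acute pool 2 and -0.34 to -0.59 in acute pool 3, and 1 probe named by no gene symbol.

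**Figure D4:**
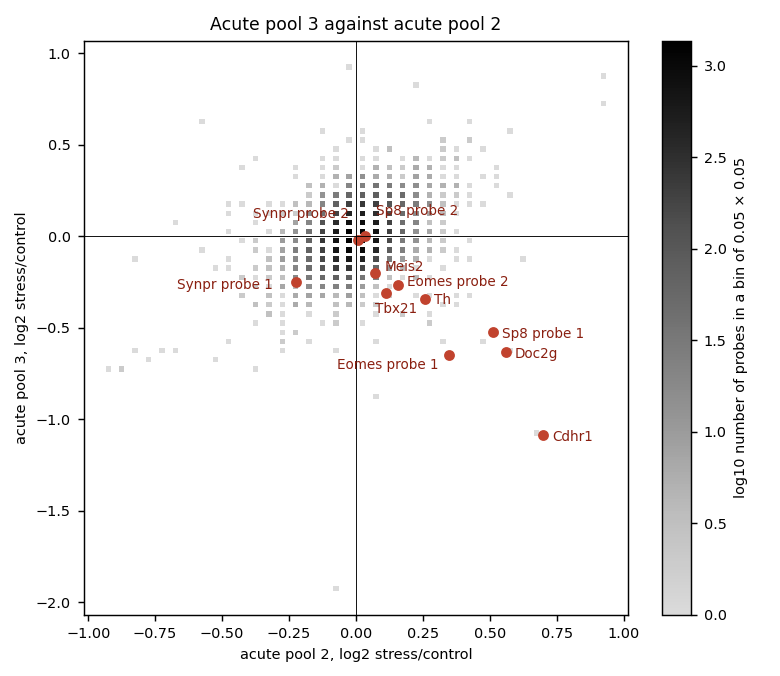
Log2 ratio of stress over control in acute pool 3 (y axis) against acute pool 2 (x axis); grey squares are bins of probes well above background on every array, darker with more probes on a log10 scale, and red points are the 11 bulb marker probes. Cdhr1 (0.70 and -1.09), Doc2g, Sp8 probe 1, Eomes probe 1 and Th lie in the lower right, away from most probes.

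Over the 12 pools, ratios of most markers were correlated. Of the 28 pairs of the 8 genes, each gene represented by its brightest probe, 15 had an adjusted p under 0.05 for Pearson's r and 3 for Spearman's rho (permutation tests, 100000 permutations, two-sided, Benjamini-Hochberg over 28 pairs). The 8 genes were chosen with earlier results of these data known, so these p-values are a description and no independent test. The share of other pairs of probes that would pass is not given here. All 10 pairs among Th, Doc2g, Eomes, Cdhr1 and Sp8 were among the 15, with r of 0.74 to 0.94 and rho of 0.27 to 0.87. The other 5 were Meis2 with Th, Eomes and Cdhr1, and Tbx21 with Eomes and Sp8. Eomes was well above background on 0 arrays after 8 days and in recovery, so its ratios there are those of a probe near background. Th and Doc2g had r = 0.94 (permutation p = 1e-05, the smallest these permutations can give, adjusted p = 0.00028) and rho = 0.87 (permutation p = 0.00039, adjusted p = 0.0109). Doc2g and Cdhr1 had r = 0.90 (permutation p = 0.00015, adjusted p = 0.0021) and rho = 0.84 (permutation p = 0.00108, adjusted p = 0.0151). With the mean of each time point removed, the 10 pairs had r of 0.77 to 0.97, and with the mean of each pool number, and so of its slides, removed 0.72 to 0.93.

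Acute pools 2 and 3 weighed unequally on these relations. Without them, the 10 pairs had r of -0.11 to 0.86. Eomes with Cdhr1 had r = -0.11, Th with Sp8 -0.01 and Eomes with Sp8 0.01, whereas Doc2g with Cdhr1 had 0.68, Cdhr1 with Meis2 0.67 and Th with Cdhr1 and with Meis2 0.62 each. Of the 28 pairs 1 passed over these 10 pools, Th with Doc2g (r = 0.86, permutation p = 0.0014, adjusted p = 0.0392). Leaving out acute pool 3 alone left 2 pairs that passed. Acute pools 2 and 3 were also the 2 farthest from the median for each of the 5 genes. Synpr had r of -0.02 to 0.36 with the other 7 genes.

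Genes with the most similar course over the 12 pools were sought among 19576 probes that had a gene symbol and were detected in both channels of all arrays, as a description, since all points share arrays and slides. The nearest to Th were Doc2g (r = 0.94), Zfp618 (0.88) and Cdhr1 (0.86). For Doc2g they were Th (0.94), the homeobox gene Meis1 (0.92) and Mfsd12 (0.90). Cdhr1 was nearest to Doc2g (0.90), Sp8 (0.88) and Pbx3 (0.88), which encodes a homeobox partner of Meis proteins. Sp8 was nearest to Gpd1 (0.94), a cytosolic glycerol-3-phosphate dehydrogenase, Pbx3 (0.88) and Cdhr1 (0.88). Only the 6 genes whose brightest probe was well above background on every array were searched, so Tbx21 and Eomes were left out. Of these 6 genes, 4 had another of the 6 among their 3 nearest. Meis2 was nearest to Rfx4 (0.89), Zfp608 (0.87) and Hrct1 (0.87), and Synpr to Nol4 (0.95), Ak5 (0.93) and Hkdc1 (0.93), with 0 of the 6 genes among them.

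Other genes of the bulb and of its neighbours were examined in the same pools. Of 17 other interneuron genes of the bulb, 13 were higher in stress in acute pool 2 and lower in acute pool 3, a combination found in 21% of all probes well above background. Their medians were 0.07 and -0.16 in these pools, against 0.30 and -0.43 for the 8 genes and medians within 0.01 of 0 over all probes. Trh, the thyrotropin-releasing hormone precursor, had 0.27 and -0.50, Calb2 (calretinin, a calcium-binding protein, not well above background on some arrays) 0.07 and -0.28, and Gad1, a GABA-synthesising enzyme, 0.20 and -0.20. Of 5 other mitral and tufted cell genes 2 showed this combination, and their medians were 0.01 and -0.06. Slc17a6, a vesicular glutamate transporter, had 0.13 and -0.12, and Lhx5, a homeobox factor not well above background on some arrays, 0.01 and -0.05. Ntng1 (netrin G1) had 0.29 and 0.26, the neuropeptide gene Cck -0.18 and -0.14, and Reln, which encodes the secreted protein reelin, -0.06 and -0.06, each with the same sign in both pools. Omp, the marker of mature olfactory sensory neurons whose axons form the olfactory nerve, had 0.24, 0.09 and -0.87 in acute pools 1 to 3. Its values in the other pools lay between -0.36 and 0.30.

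The same combination was found in 4 of 12 cortical projection neuron genes, 4 of 11 genes of the striatum and olfactory tubercle, 2 of 4 genes of the olfactory nerve and its ensheathing glia, 2 of 6 genes of migrating neuroblasts, 2 of 7 genes of dopamine and noradrenaline synthesis and transport other than Th, and 1 of 9 genes of T and NK lymphocytes, cells that also use Tbx21 and Eomes. The vesicular glutamate transporter of cortex, Slc17a7, had -0.04 and -0.08. The dopamine genes Ddc (aromatic amino acid decarboxylase) and Slc6a3 (dopamine transporter, not well above background on some arrays) had 0.03 and 0.02, and 0.05 and -0.07. Nr4a2, a nuclear receptor of dopamine neurons and also of cortex, had 0.30 and 0.34. Their part in the result for Th was not tested.

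In limma 0 genes of these 8 lists were called at any time point or in the mean over the 4. Of all probes, 0% to 0.0279% were called in these comparisons. At an unadjusted p under 0.05 there were 0 to 4 genes of a list, against 3.97% to 11.9% of all probes. In the mean (11.9%) these were 4 of 12 cortical genes, 3 of 11 striatal genes and 3 of 17 bulb interneuron genes. They were 1 of 7 dopamine genes, 1 of 4 olfactory nerve genes and 0 mitral, neuroblast or lymphocyte genes. In the mean over the 4 time points the genes named here by the rule were within 0.15 of 0: Nr4a2 (0.15) and Slc18a2 (0.04) of the dopamine list, Frzb (0.12) and Fabp7 (-0.05) of the olfactory nerve and its glia, Rorb (0.11) of cortex, Trh (-0.12) of bulb interneurons, Slc17a6 (0.07) and Ntng1 (0.01) of mitral cells, Sox4 (-0.06) and Cd24a (0.05) of neuroblasts, Penk (-0.06) of the striatum, and Prf1 (-0.02) and Nkg7 (0.02) of lymphocytes. Fabp7, a fatty acid-binding protein of ensheathing and radial glia, had -0.23, -0.53 and -0.69 in acute pools 1 to 3, and at -0.48 (SE 0.090, limma adjusted p = 0.174) it was lower in stress in 3 of 3 of them. Of all probes, 14.2% were lower in stress in all 3 acute pools. Fabp7 was called, at -0.54 (SE 0.0569, limma adjusted p = 0.000308), where slide was a block. That model runs over the 20 arrays with an estimated correlation of -0.058 within a pool, so the original and swap arrays of one pool count nearly as separate replicates and the SE is too small.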

How the data were processed

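The 8 genes, the gene lists and the choice of alternatives were made with earlier results of these data known. The authors read the arrays with Agilent Feature Extraction 10.10.1.1 (protocol GE2_1010_Sep10, probe positions on mm9). As deposited, the scanner tables hold red and green mean intensities and local backgrounds, a log10 ratio of red over green, and flags; the value table deposited by the authors, who named normexp, loess and Aquantile, holds log2 ratios of stress over control (column medians -0.023 to 0.028) that correlated at 0.913 to 1.00 with normexp at offset 0 without the repair below.

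Intensities were corrected in limma 3.58.1 (R 4.3.3, statmod 1.5.0, data.table version 1.17.8, jsonlite 2.0.0) by normexp with an offset of 50, which shrinks ratios of dim probes, then normalised by loess and Aquantile. Control spots were left out and outlier spots (0.314% to 0.73% of an array) set to missing. On 9 arrays the noise that normexp estimated was inflated (up to 6019 intensity units), and these held 3 to 82 spots an array whose background ring was over 3 times the channel median. That background was set to the median and the spots were left out, a step added after values were seen, the 8 genes' included; noise was then at most 3.34, and 0 spots of the 8 genes were touched. The 43020 spots gave 39429 probes, and the fit had 12 pools, a coefficient for each time point and Benjamini-Hochberg adjustment. SE and intervals (95%) are limma's. The fit was tested on simulated ratios. Alternatives covered background, offset, normalisation, the authors' table, filters, blocks, scan day and each pool left out. Pools hold different mice, so p-values measure the spread between pools; the number of arrays limits precision. Original and swap arrays correlated at -0.36 to -0.0945 over all probes, and dye bias was not averaged out in pool 1, with no swap used here: 7.01% to 10.7% of its probes had a ratio over 0.25 in size, against 0.875% to 2.27% in pools 2 and 3. Genes of the lists were named by rule: called ones (at most 4), or otherwise the 2 with the largest mean ratio over the 4 time points in size among probes well above background on every array; others named beside a count were chosen after values were seen. Some genes that the rule names are not reported here.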

Additional observations from a re-analysis of the deposited data

How the results depend on the processing

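The count of called bulb marker probes was 0 under every alternative run for each time point, for the mean over the 4 and for the differences between time points; lowest adjusted p over alternatives was 0.0972 after acute stress (slide as a block), 0.202 after 8 days, 0.198 after 13 days, 0.622 in recovery, 0.0683 in the mean (pool number as a block) and 0.0607 for differences (slide as a block). With the pool number as a block (replicate block), 0 bulb marker probes were called. Offset 0, median centring and the authors' table called 0 probes of the whole array, as did every setting in recovery. In those cases the 0 for the bulb markers adds nothing. Pools of the same number correlated at a median r of 0.23 (-0.09 to 0.46, 13 of 18 pairs above 0.1), against -0.11 for pools of different number. Of 12 pools, 8 correlated best with their own number. The pool number goes with slide and scan day, and the main fit holds no term for it. Scan day 2 held 1 pool per time point and gave values with no test.

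The opposite signs of acute pools 2 and 3 stood under all 7 other background and scaling settings for Cdhr1, Doc2g, Sp8 probe 1, Th and Eomes probe 1, but the sizes moved: Cdhr1 was 0.70 to 1.41 and -1.81 to -0.66, Doc2g 0.56 to 0.83 and -0.85 to -0.48, Sp8 probe 1 0.51 to 0.78 and -0.67 to -0.40, Th 0.26 to 0.31 and -0.37 to -0.31, and Eomes probe 1 0.35 to 2.73 and -2.65 to -0.27. With the local background as deposited, Cdhr1 in acute pool 3 was -0.66 rather than -1.09. The pairs of genes with an adjusted p under 0.05 for r were 15, 7 in the authors' value table, 1 without acute pools 2 and 3, and 2 to 16 with each pool left out in turn (2 without acute pool 3). With the slide as a block 1 gene of the lists was called, Fabp7, against 0. All values with the slide as a block come from the 20 arrays with an estimated correlation of -0.058 within a pool, which counts dye-swapped arrays of one pool nearly as separate replicates and makes their p-values too small. Without Aquantile the range of mean levels over pools was 0.98 for Th, 1.04 for Doc2g, 0.25 for Tbx21, 0.76 for Cdhr1, 0.70 and 0.61 for the Sp8 probes, 1.08 for Meis2, and 0.64 and 0.65 for the Synpr probes, against 0.70, 0.72, 0.37, 0.51, 0.40, 0.33, 0.58, 0.38 and 0.34 with it; the cause was not tested. Ratios were the same without Aquantile.

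Calls over all probes were 2, 1, 11, 0 and 5 (acute, 8 days, 13 days, recovery, mean over the 4). They were 5, 9, 21, 0 and 7 with the slide as a block, 2, 1, 14, 0 and 9 with the replicate block, 1, 0, 9, 0 and 5 with the background as deposited, and 1, 0, 3, 0 and 1 with the scanner's ratio. Offset 0, median centring and the authors' table gave 0 throughout, and robust trended variances 2, 0, 0, 0 and 0. Each time point on its own pools gave 0, 7, 11 and 0, pools 2 and 3 alone 3, 3, 12, 0 and 0, and scan day 1 alone 0, 0, 8, 0 and 6. Each pool left out in turn gave 0 to 4, 0 to 5, 6 to 12, 0 and 0 to 6. Leaving out acute pools 2 and 3, chosen like the repair after seeing the data, left 1 acute pool with no dye swap and gave 141, 0, 9, 0 and 15.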
